A study of Mus musculus with 2 samples.

Results

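First-intron accessible sites are stretches of open chromatin inside the first intron of a protein-coding gene, away from the annotated starts of protein-coding genes. They were mapped in kidney tissue of female mice aged 36 days by DNase-seq, an assay that sequences the ends left when the nuclease DNase I cleaves exposed DNA in nuclei. The mice were B6CASTF1/J, the hybrid offspring of C57BL/6J and CAST/EiJ, and no treatment, control or second condition was labelled. There were 2 libraries, labelled biological replicates 1 and 2 of 1 group; the labels number the females separately but give both the same donor entry, so that only the replicate numbers mark them as separate animals. A site was a stringent peak of replicate 1 that overlapped a stringent peak of replicate 2 by at least 1 base and whose middle lay in the first intron of the longest protein-coding transcript of a gene, outside all exons and more than 1000 bp from every annotated start of a protein-coding gene. Of 65636 peaks shared by the libraries, 6409 met this rule, or 9.76% (95% Wilson interval 9.54 to 9.99%, counting error only). Replicate 1 held 13378 such peaks among 124504 and replicate 2 held 6660 among 68056. The comparison was with 12277 shared peaks in later introns, chosen by the same conditions.

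The first intron follows the first exon, so it begins close to the promoter, and in many genes it is the longest intron. First introns are known to hold enhancers, alternative promoters and other regulatory sequence bound by transcription factors, and in kidney, as in other organs, such sites can be specific to a cell type. A DNase footprint is a short stretch inside an accessible site that is cut less than its surroundings, as happens where a protein covers the DNA. In whole tissue, fewer cells with an open site and a less open site in each cell cannot be told apart.

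The sequences below show what the tallest sites and the tallest sites of kidney cell type genes look like. They are reference sequence of mm10 (GRCm38), which is the C57BL/6J allele, and the CAST/EiJ allele may differ. Each is the + strand, whole or its middle 300 bp, with capitals for bases that lay inside a footprint in both libraries. Sites from among the tallest by mean rank of height come first, in Nr1d1 at chr11:98773851-98774150 and in the read-through gene Gm20388 at chr8:121585461-121585720.
Nr1d1: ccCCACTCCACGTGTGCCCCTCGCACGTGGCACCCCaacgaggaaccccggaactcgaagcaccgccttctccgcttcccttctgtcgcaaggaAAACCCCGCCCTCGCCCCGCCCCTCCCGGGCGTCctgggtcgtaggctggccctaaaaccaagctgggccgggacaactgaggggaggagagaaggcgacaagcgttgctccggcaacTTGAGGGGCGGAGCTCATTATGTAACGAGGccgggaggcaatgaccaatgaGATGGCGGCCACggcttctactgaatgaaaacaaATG
Gm20388: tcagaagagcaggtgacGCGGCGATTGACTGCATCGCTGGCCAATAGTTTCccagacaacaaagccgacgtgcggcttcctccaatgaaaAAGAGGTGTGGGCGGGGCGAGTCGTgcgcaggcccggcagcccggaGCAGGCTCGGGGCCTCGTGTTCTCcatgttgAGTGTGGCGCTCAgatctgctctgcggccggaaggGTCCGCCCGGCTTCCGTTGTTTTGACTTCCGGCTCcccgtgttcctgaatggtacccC

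Nr1d1 encodes REV-ERB alpha, a nuclear receptor of the circadian clock that represses transcription. Its stretch was 63% GC, with 113 bases inside footprints of both libraries in 5 separate runs. It held the E-box CACGTG, the motif of CLOCK-BMAL1 and of the MYC and MAX family, at bases 9 to 14 and 24 to 29, and an SP/KLF motif (GGGCGGGGC or its reverse complement) at bases 108 to 116, and all 3 matches lay inside footprints in both libraries. The Gm20388 site had 132 footprinted bases, with an SP/KLF motif at bases 100 to 108 and an ETS motif (CCGGAAG) at bases 228 to 234 inside footprints of both libraries, and with another ETS match at bases 195 to 201 and the E-box CAGGTG at bases 10 to 15 outside them.

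For segments of the nephron and collecting duct, the tallest first-intron site of a marker gene was in Slc4a4 for proximal tubule (chr5:88929841-88930040), Slc8a1 for distal convoluted and connecting tubule (chr17:81480421-81480600), Aqp3 for principal cells (chr4:41096201-41096380, where a taller site, in Nedd4l, is given by its values only) and Atp6v1b1 for intercalated cells (chr6:83744181-83744380).
Slc4a4: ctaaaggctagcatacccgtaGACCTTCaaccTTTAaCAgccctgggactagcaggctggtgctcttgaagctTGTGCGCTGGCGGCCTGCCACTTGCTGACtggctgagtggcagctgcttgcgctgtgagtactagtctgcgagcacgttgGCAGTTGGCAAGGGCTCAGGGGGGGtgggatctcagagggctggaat
Slc8a1: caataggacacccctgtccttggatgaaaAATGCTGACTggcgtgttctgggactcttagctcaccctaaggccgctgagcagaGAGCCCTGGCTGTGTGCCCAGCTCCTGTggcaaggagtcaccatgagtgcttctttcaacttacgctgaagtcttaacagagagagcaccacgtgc
Aqp3: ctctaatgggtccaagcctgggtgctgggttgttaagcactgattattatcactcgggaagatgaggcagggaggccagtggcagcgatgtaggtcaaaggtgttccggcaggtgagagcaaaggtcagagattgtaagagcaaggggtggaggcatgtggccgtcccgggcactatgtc
Atp6v1b1: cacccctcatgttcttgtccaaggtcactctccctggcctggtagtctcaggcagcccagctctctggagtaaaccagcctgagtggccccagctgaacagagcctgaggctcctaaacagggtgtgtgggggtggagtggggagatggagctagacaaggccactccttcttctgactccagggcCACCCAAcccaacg

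For the glomerulus, vessels, stroma and kidney transcription factors, it was in Col4a3 for podocytes (chr1:82634681-82634920), Eng for endothelium (chr2:32655921-32656200), Ren1 for stromal and mural cells (chr1:133353621-133353800) and Sim1 for transcription factors (chr10:50902701-50902960).
Col4a3: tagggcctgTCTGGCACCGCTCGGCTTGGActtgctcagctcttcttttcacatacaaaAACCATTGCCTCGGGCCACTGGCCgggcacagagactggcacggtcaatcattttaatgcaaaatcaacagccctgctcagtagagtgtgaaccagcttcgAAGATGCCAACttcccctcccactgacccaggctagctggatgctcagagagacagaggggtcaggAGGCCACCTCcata
Eng: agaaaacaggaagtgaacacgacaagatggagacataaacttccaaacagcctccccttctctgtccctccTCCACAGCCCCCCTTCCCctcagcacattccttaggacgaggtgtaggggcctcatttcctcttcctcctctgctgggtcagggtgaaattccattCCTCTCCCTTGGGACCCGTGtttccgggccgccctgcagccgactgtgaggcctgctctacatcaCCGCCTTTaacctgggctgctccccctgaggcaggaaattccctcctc
Ren1: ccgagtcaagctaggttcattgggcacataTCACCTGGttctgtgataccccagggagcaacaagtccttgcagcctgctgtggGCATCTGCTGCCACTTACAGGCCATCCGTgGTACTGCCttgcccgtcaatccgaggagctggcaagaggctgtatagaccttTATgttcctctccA
Sim1: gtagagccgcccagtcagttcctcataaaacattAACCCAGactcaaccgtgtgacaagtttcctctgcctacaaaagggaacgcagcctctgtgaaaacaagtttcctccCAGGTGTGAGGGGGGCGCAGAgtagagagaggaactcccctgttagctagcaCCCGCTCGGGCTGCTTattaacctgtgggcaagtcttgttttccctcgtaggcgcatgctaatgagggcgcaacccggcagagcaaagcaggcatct

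Footprinted bases varied widely among these sites. The Aqp3 site had none in common between the libraries and the Atp6v1b1 site had 7 bases, while the Slc4a4 and Col4a3 sites had 67 and 66 bases. In the Ren1 and Sim1 sites a match to the E-box CAGGTG lay inside a footprint in both libraries, at bases 32 to 37 and 112 to 117. In the Slc8a1 site a CACGTG at bases 174 to 179 and in the Eng site a TEAD motif (ACATTCC) at bases 96 to 102 lay outside footprints in both libraries.

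First introns held more accessible sites per length than later introns. The rule left 204.67 Mb of first-intron sequence and 593.81 Mb of later-intron sequence that could hold a site. Density was 31.3 sites per Mb in first introns and 20.7 in later introns, a ratio of 1.51. The ratio was 1.45 when all peaks of replicate 1 were counted and 1.52 with those of replicate 2, although replicate 1 had 65.4 first-intron peaks per Mb and replicate 2 had 32.5. First introns were the denser class on 20 of 20 chromosomes with sites, from a ratio of 1.15 on chromosome 13 to 2.45 on X. Chromosome X was sparse in both classes, with 9.62 first-intron and 3.93 later-intron sites per Mb against 32.3 and 21.6 on the autosomes, and its ratio rests on 84 and 108 sites. With 1 group of 2 libraries there was no test between groups, and sites that share a gene or a library are not replicates, so these are descriptions.

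The ratio was smaller when the classes were compared at like distances from a start. The median distance to the nearest protein-coding start was 8131 bp for first-intron and 13492 bp for later-intron sites. Weighted over 7 bins of that distance, the ratio was 1.37, with 1.33 in replicate 1 and 1.37 in replicate 2. It was 1.60 at 1 to 2.5 kb, where first introns had 53.7 and later introns 33.6 sites per Mb, and 1.29 at 10 to 25 kb, with 31.1 and 24.1. It was lowest, 1.09, at 50 to 100 kb, and was 1.22 over 100 kb. In every bin, and in each library, the ratio was above 1.

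**Figure D1:**
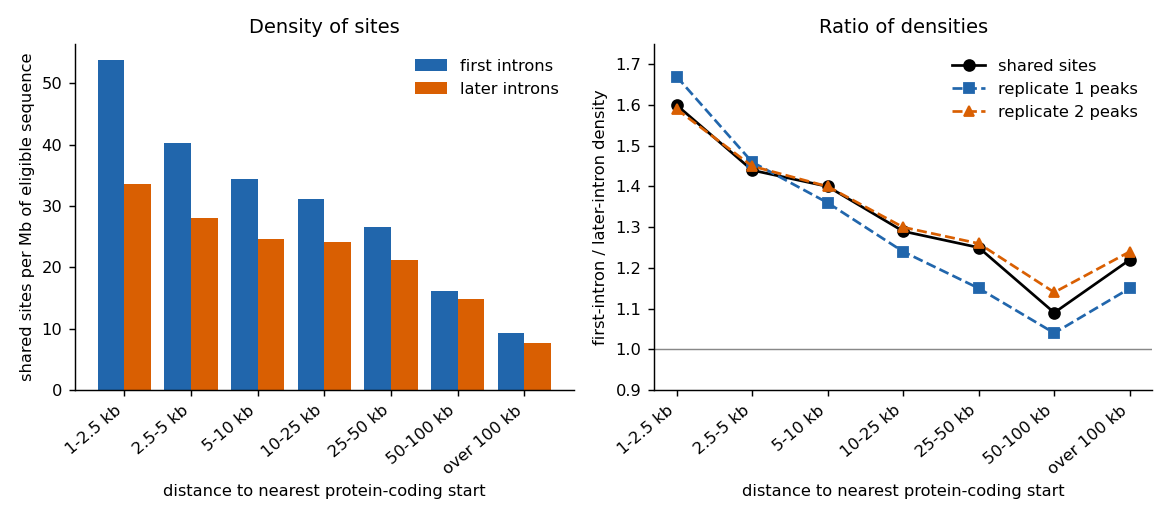
Left, bars give shared sites per Mb of eligible sequence in first and later introns by distance to the nearest protein-coding start. Right, points give the ratio of the densities for shared sites and for the peaks of each library (axis from 0.9, line at 1). For shared sites it falls from 1.60 at 1 to 2.5 kb to 1.09 at 50 to 100 kb and is 1.22 over 100 kb.

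Density also declined along the gene. Intron 1 held 30.9 sites per Mb, intron 2 held 25.1, intron 3 held 22.7 and intron 4 held 20.4, and introns 5 to 10 held between 17.8 and 21.3 with no further order (sites in introns of overlapping genes count for each gene here). By intron length, first introns had 1.60 to 1.80 times the density of later introns in each of 7 length classes. Introns over 100 kb were the sparsest, with 17.3 sites per Mb in first and 10.7 in later introns, and first introns of 5 to 10 kb had 42.7. Within first introns of 5 to 25 kb, the 10% nearest the 5′ end had 77 sites per Mb, the next 10% had 54 and the 10% at the 3′ end had 28.4. In first introns of 25 to 100 kb the 5′ 10% had 51.3 and the other parts between 32 and 38.2. In those over 100 kb the range over all 10 parts was only 14.5 to 20.8.

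**Figure D2:**
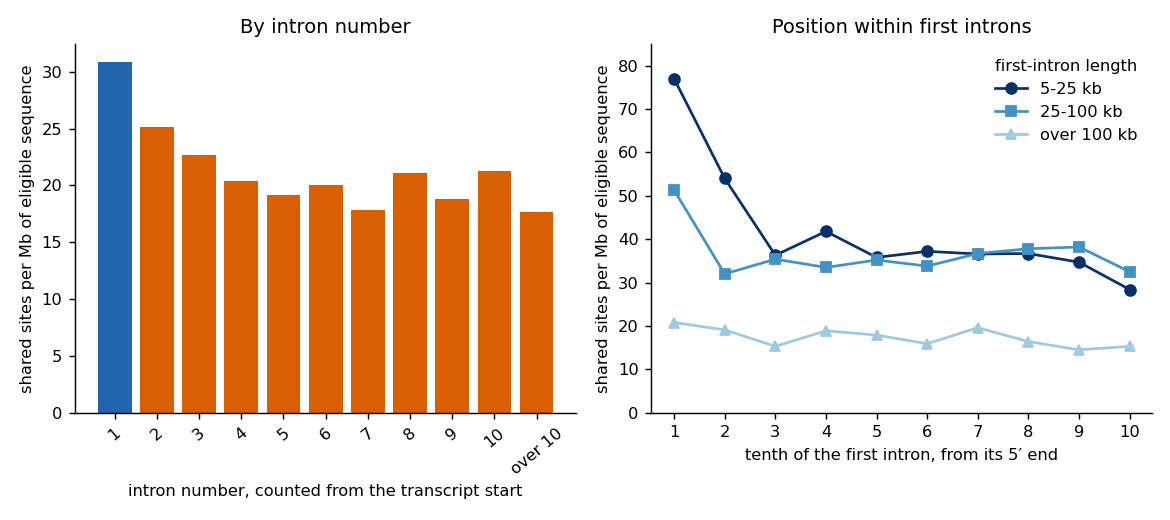
Left, bars give shared sites per Mb of eligible sequence by intron number, with 30.9 in intron 1 and 17.7 beyond intron 10. Right, lines give the density in first introns along their length in 10 equal parts from the 5′ end, by intron length; the 5′ part stands at 77 for introns of 5 to 25 kb and at 20.8 for those over 100 kb.

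The ratio was smaller again within genes. When first and later introns were compared gene by gene, with each gene weighted by its eligible lengths and without Gm20388, the ratio was 1.22, against 1.48 when the same 12418 genes were pooled. The within-gene ratio was 1.23 in each library. Of 5145 genes with at least 5 kb of eligible sequence in both classes, the first intron was denser in 1576, the later introns were denser in 1711, and 1858 had no site in either. With at least 50 kb in both classes, the first intron was denser in 257 genes and the later introns in 247. These counts of genes do not measure parity of density. Later introns had more eligible sequence in these genes, and what part that has in the counts was not tested. Summed over the 5145 genes, first introns had 29.2 and later introns 20.5 sites per Mb.

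First-intron sites went with an accessible promoter. Of 9153 genes with a shared peak within 1 kb of one of their own transcript starts, 27.3% held a first-intron site, against 8.59% of 5020 genes without one. A promoter peak needed only its edge within 1 kb, so a first-intron site with its middle just beyond could count as its own gene's promoter peak. How many did so was not counted, and all values split by promoter peak share this limit. In first introns of 10 to 25 kb these shares were 37.6% and 16.9%, and over 100 kb they were 81.7% and 38.9%. Density was 40.7 first-intron and 25.6 later-intron sites per Mb in genes with a promoter peak, and 10.9 and 9.91 in genes without. At like distances the ratio of first to later introns was 1.47 in genes with a promoter peak, with 1.43 in replicate 1 and 1.48 in replicate 2. In genes without a promoter peak it was 0.929, with 0.975 and 0.929 in the libraries. Gene by gene the ratios were 1.29 with a promoter peak and 0.801 without.

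**Figure D3:**
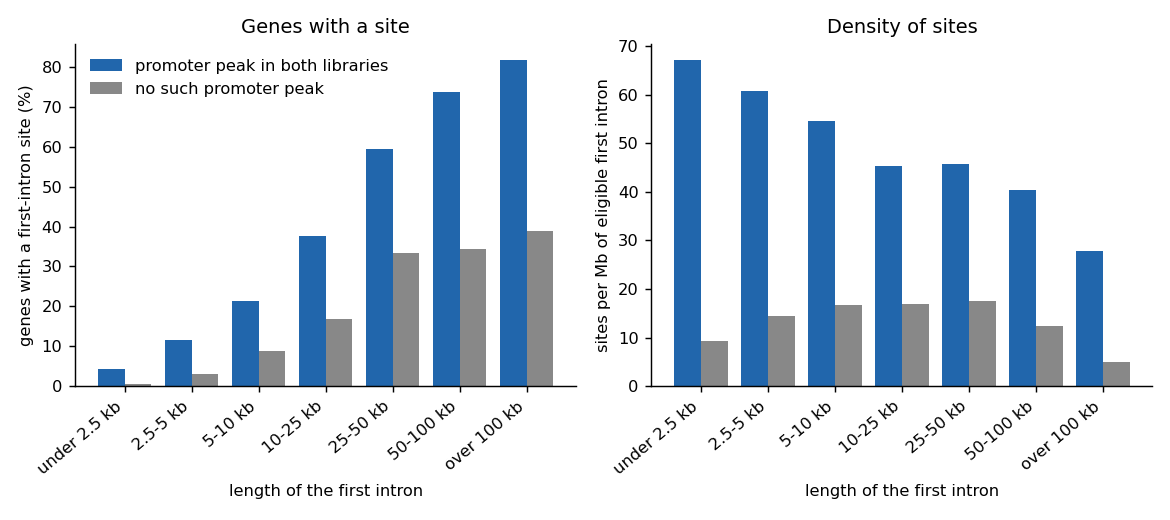
Bars give, by length of the first intron, the percent of genes with a first-intron site (left) and the sites per Mb of eligible first-intron sequence (right), for genes with and without a promoter peak shared by both libraries. In every length class genes with a promoter peak stand higher, from 4.36% against 0.626% under 2.5 kb to 81.7% against 38.9% over 100 kb.

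First-intron sites were often nearer to another start of the same gene than to that of the longest transcript. From the start of the transcript that defined the intron the median distance was 14340 bp, while from the nearest annotated start of the same gene it was 8803 bp. Another start was nearer, by any number of bases, for 69.2% of 6519 site and gene pairs. The rule removed sites near GENCODE protein-coding starts. Of the remainder, 160 (2.5%) lay within 1 kb of the start of a noncoding gene, and 312 (4.87%) lay within 1 kb of a RefSeq mRNA start, curated or predicted, against 1.95% of later-intron sites. The sites just inside the limit, at 1000 to 1250 bp, numbered 341 and had median heights of 2.48 and 1.44 in replicates 1 and 2, and 90.3% had a footprint in both. The 441 first-intron peaks just outside, at 750 to 1000 bp, had medians of 2.38 and 1.43, and 82.3% had a footprint in both.

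First-intron sites were slightly taller than later-intron sites. Peak height is the authors' signal value on a scale that differs between the libraries, so heights are compared within a library. The median was 2.32 for first-intron and 2.05 for later-intron sites in replicate 1, and 1.41 and 1.22 in replicate 2, so the ratios were 1.13 and 1.15. Heights spread far more than that, from 0.817 at the 5th to 7.30 at the 95th percentile of first-intron sites in replicate 1 and from 0.621 to 5.22 in replicate 2. The height ratios above are not at like distances from a start. At 10 to 25 kb, first-intron and later-intron medians were 2.42 and 2.12 in replicate 1 and 1.51 and 1.24 in replicate 2. At 50 to 100 kb they were 1.76 and 1.74, and 1.11 and 1.08. Over 100 kb they were 1.59 and 1.59, and 1.01 and 0.998. All shared peaks, promoters included, had medians of 2.52 and 1.52. Of the first-intron peaks of replicate 1, 47.9% (47.1 to 48.8%) were shared with replicate 2, and of those of later introns 45.9% (45.3 to 46.5%). Of the 6969 that were not shared, 41.5% overlapped a peak of the wider set in replicate 2, and their median height in replicate 1 was 0.863.

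Footprints were common in both classes. At least 1 footprint in both libraries was present in 90.4% of first-intron sites (89.7 to 91.1%) and 89.7% of later-intron sites (89.2 to 90.3%). First-intron sites held a median of 3 footprints in replicate 1 and 2 in replicate 2, with up to 12 in each. These intervals overlapped, and no interval was computed for the difference of 0.698 percentage points. The difference changed sign with the stronger 50% of peaks (-0.636) and with only the 5′ ends of genes as starts (-0.372). Footprint calls depend on depth, which the files used here do not give.

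The sequence of first-intron sites resembled that of later-intron sites and not that of promoters. In 200-bp windows around their middles the median GC content was 52% in first-intron and 51.5% in later-intron sites, 62.5% in shared peaks within 1 kb of a protein-coding start, and 47.5% in windows 1 kb to each side of the first-intron sites. Repeats made up 8.82% of the bases of first-intron sites and 22.4% of those of the flanks. CpG-rich windows, with at least 50% GC and an observed over expected CpG ratio of at least 0.6, were few, 3.68% of first-intron and 1.91% of later-intron sites against 61.5% of promoter peaks. They were most frequent near starts, at 10.7% of the first-intron sites at 1 to 2.5 kb and 2.55% of those at 2.5 to 5 kb. Of the later-intron sites at these distances, 3.45% and 2.23% were CpG-rich. Of the 236 CpG-rich first-intron sites, 50 (21.2%) lay within 1 kb of a RefSeq mRNA start, against 5.96% of the CpG-rich later-intron sites. Median heights of the 236 were 3.09 and 1.83, against 2.29 and 1.40 for the other first-intron sites.

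Most of the 23 motifs searched were more frequent in first-intron sites than in windows 1 kb to each side. Those flanks had lower GC content and more repeats, and no background of like composition was compared. A motif was counted where its letters, on either strand, occurred in the 200-bp window, and a match is not a bound site. HNF4 (AAAGTCCA), of the nuclear receptors of proximal tubule, occurred in 3.65% of first-intron sites, 3.14% of later-intron sites, 2.48% of all shared peaks and 0.85% of flanks. HNF1 (TTAATNATT), of the homeodomain factors of tubule epithelium, occurred in 2.90%, 2.86%, 1.99% and 1.02%. The NF1 motif CTTGGCA occurred in 10.6% of first-intron sites and 3.35% of flanks, and AP-1 (TGANTCA) in 9.08% and 5.59%. The promoter motifs were rare here, with ETS in 2.12% and SP/KLF in 1.48% of first-intron sites against 11.6% and 16.1% of promoter peaks. Forkhead (TGTTTAC) was in 3.28% of first-intron sites and 2.41% of flanks, TEAD (ACATTCC) in 5.27% and 2.72%, the antioxidant response element TGACTNNGC in 4.28% and 2.05%, and ERR (CAAGGTCA) in 2.73% and 1.54%. STAT (TTCCNGGAA) was in 1.33% and 0.546%, HOX/PBX (TGATTNAT) in 2.81% and 2.44%, and MEF2 (CTATTTTTA) in 0.515% and 0.335%. The GATA factor motif AGATAAG was in 1.65% of first-intron sites and 2.25% of flanks, POU (ATGCAAAT) in 0.858% and 1.07%, and the E-box CAGGTG in 15.6% and 15.7%. The cyclic AMP response element TGACGTCA was in 0.515% of first-intron sites and 2.40% of promoter peaks, NRF1 (GCGCATGCG) in 0.156% and 2.37%, and YY1 (AAGATGGCG) in 0.140% and 1.70%.

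Of the 23 motifs, few differed between first and later introns by more than their intervals. The CTCF core AGGGGGCGC, of the factor that anchors chromatin loops, was in 0.702% of first-intron sites (0.525 to 0.938%) and 1.16% of later-intron sites (0.990 to 1.37%). The steroid receptor motif ACANNNTGT was in 6.58% (6.00 to 7.22%) and 7.75% (7.29 to 8.23%). The E-box CACGTG was in 6.49% (5.91 to 7.12%) and 5.48% (5.09 to 5.90%). These intervals do not overlap for any of the 3, but they are 3 of 23 motifs compared, and the windows share genes and libraries.

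Some motifs in first-intron sites lay inside footprints far more often than others. What share of all window bases lay in footprints was not computed, and a 200-bp window can reach past its site. A low share therefore does not mark a motif as unbound. In both libraries, 22 of 45 CTCF matches (48.9%), 49 of 106 SP/KLF matches (46.2%) and 15 of 29 RFX matches (GTTGCCATG, 51.7%) lay wholly inside a footprint. For the NF1 motif it was 147 of 714 (20.6%), and for CACGTG 86 of 436 (19.7%). For AP-1 it was 16 of 615 (2.6%), and for the motif of GATA factors, AGATAAG, 0 of 107, with 2 inside a footprint in each library alone. In later introns 61.1% of CTCF, 36.7% of SP/KLF, 28.3% of RFX and 16.5% of NF1 matches lay in footprints of both libraries. For most motifs the share inside footprints was lower in replicate 2 than in replicate 1. In replicates 1 and 2 it was 42.4% and 10% for HNF1 and 93.3% and 51.1% for CTCF. It was 83% and 47.2% for SP/KLF and 82.8% and 51.7% for RFX. NRF1 went the other way, with 75% and 83.3% of 12 matches.

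Few genes carried many first-intron sites. Of 14173 protein-coding genes with eligible first-intron sequence, 2931 held at least 1 site, which is 20.7%. Of these, 1593 held 1 site and 169 held 6 or more. Neighbouring sites in 1 intron were a median of 4970 bp apart, and 17.8% of 3588 neighbouring pairs were within 1 kb. Gm20388 led with 227 sites, 3.54% of all. Its longest transcript is annotated as a read-through transcript whose first intron spans 4380 kb on chromosome 8 and covers other genes. Of its sites, 65 also lay in the first intron of another gene, 36 in a later intron of another gene and 126 in no other intron, so its sites cannot be assigned to it. Its tallest site, printed above, lay 4770 bp from the nearest protein-coding start.

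After it came Rora with 25 sites in a first intron of 542 kb, the gene of a nuclear receptor that opposes REV-ERB alpha in the clock. Heights of the Rora sites ran from 0.575 to 8.92 in replicate 1 and from 0.540 to 7.78 in replicate 2, and its density of 46.6 sites per Mb was close to the 44.9 of its later introns. Arhgap26, which encodes a GTPase-activating protein for RHOA, has more than 1 entry of that name, and 22 sites, of heights up to 10.9 and 8.65, lay in the first intron of 257 kb of one entry. Ank3, the gene of ankyrin G, a membrane skeleton adaptor of epithelia, held 19 sites in 274 kb. Pitpnc1, of a phosphatidylinositol transfer protein, and Prkce, of protein kinase C epsilon, held 17 each. First and later introns had 91.7 and 64.7 sites per Mb in that Arhgap26 entry and 72.4 and 67.5 in Ank3. They had 134 and 65.2 in Pitpnc1 and 93.8 and 85.7 in Prkce, whose later introns held 25 sites. Pxn, of the focal adhesion protein paxillin, held 15 in an intron of 37.5 kb, or 500 per Mb of its eligible sequence, with heights from 2.22 to 9.53 and from 1.21 to 7.35. The later introns of Pxn had only 2.47 kb of eligible sequence and no site. Cmip and Gse1 held 14 each, at 120 and 236 per Mb, against 92.9 and 113 in their later introns. All 15 Pxn sites and all 14 of Cmip and of Gse1 had footprints in both libraries.

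The tallest sites far exceeded the median heights of 2.32 and 1.41. The Nr1d1 site, 440 bp wide and 1332 bp from the transcript start in an intron of 2.58 kb, had a height of 35.8 in replicate 1 and 31.7 in replicate 2. The Gm20388 site had 30.1 and 22.4. The Mnt site, 1301 bp from the start of the gene of a MAX-binding repressor, had 24.8 and 21.5. The first intron of Ccnd3, of a D-type cyclin, held 2 of the 10 tallest, one at 24.2 and 17.5 and the other at 20.7 and 14.9. Other sites among the 10 were in the first intron, of 104 kb, of the other Arhgap26 entry (25.2 and 19), Pfkfb3, of an enzyme that stimulates glycolysis (19.3 and 15.6), Zfp516, of a zinc finger factor (17.9 and 15.5), and Creb3l1, of a membrane-bound transcription factor (20.7 and 13.9). Every one of the sites named here had more than 1 footprint in each library.

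Among the lists of kidney cell type genes, first-intron sites were found in the largest shares of podocyte (66.7%), endothelial (64.3%) and proximal tubule genes (42.1%), against 20.7% of all genes. First introns were longer in these lists, with medians of 34.5, 10.6 and 7.9 kb against 5.48 kb over all genes, and the density over all genes was 30.9 sites per Mb, above that of podocyte genes and below that of the other two. Of 19 proximal tubule genes with eligible sequence, 8 held a site, and density was 97.6 per Mb in first and 43.5 in later introns. Slc4a4, of the basolateral sodium bicarbonate cotransporter, held 2, with the taller at 14.0 in replicate 1 and 10.1 in replicate 2. Aqp1, of the water channel of proximal tubule and thin limb, held 2, the taller at 10.1 and 7.80. Slc13a3, of a dicarboxylate transporter, held 5, the tallest at 10 and 5.35. The endocytic receptor gene Lrp2 held 2 and Slc9a3, of the sodium hydrogen exchanger, held 5. Among the 11 without a site were Slc6a19, Slc27a2 and Gatm.

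Of 15 podocyte genes, 10 held a site, at 24.8 per Mb in first and 10.3 in later introns. Col4a3, of a collagen chain of the glomerular basement membrane, held 7, and the tallest stood at 11.1 and 12.4. Col4a4, its head-to-head neighbour, held 2, the taller at 8.15 and 5.46, and Actn4, of a cytoskeletal crosslinker, held 4, the tallest at 5.51 and 4.35. Wt1 held none. Of 14 endothelial genes, 9 held a site, at 71.8 per Mb in first and 47 in later introns. The tallest were in Eng (5.23 and 5.38), of a TGF-beta coreceptor, Tek (4.42 and 3.70), of the angiopoietin receptor, and Mmrn2 (3.37 and 3.12), of an endothelial matrix protein.

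In the remaining kidney lists the shares ran from 0 to 33.3%, against 20.7% of all genes. They were 33.3% of distal convoluted and connecting tubule, 20% of principal cell, 14.3% of intercalated cell and 14.3% of stromal and mural genes. In that order, first introns held 23.8, 50.1, 38.2 and 35.4 sites per Mb and later introns 34.8, 32.9, 51 and 29.5. None of 11 thick ascending limb genes held a site, Slc12a1, Kcnj1 and Egf among them, in 0.172 Mb of first intron. Their later introns held 1 site in 0.249 Mb. Of 12 distal convoluted and connecting tubule genes, 4 held a site, led by Slc8a1, of a sodium calcium exchanger (4.53 and 2.48), Stk39, of a kinase that acts on salt transporters (3.49 and 2.32), and Cnnm2, linked to magnesium handling (3.03 and 1.41). Of 10 principal cell genes, Nedd4l, of the ubiquitin ligase of the sodium channel, held 9 sites (tallest 8.16 and 9.14) and Aqp3, of the basolateral water channel, held 1 (1.62 and 1.70). Of 14 intercalated cell genes, Atp6v1b1, of a proton pump subunit (2.68 and 2.46), and Rhcg, of an ammonia channel (1.95 and 0.774), held 1 each. Of 14 stromal and mural genes, Ren1, of renin (3.41 and 1.43), and Tagln, of a smooth muscle actin-binding protein (1.35 and 0.998), held 1 each.

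Density was 35.4 sites per Mb in first and 43 in later introns of the 29 kidney transcription factor genes. A site was held by 9 of them, or 31%, against 20.7% of all genes. The tallest were in Sim1 (5.17 and 5.05), Emx1 (4.57 and 4.07) and Esrrb (3.8 and 2.82, of 6 sites), while Hnf4a and Pax2 held none. Of 28 nuclear receptor genes, 12 held a site (42.9%), at 57.7 and 30.4 per Mb. Next to Nr1d1 these were led by Rara, of a retinoic acid receptor (9.17 and 8.33), and Rora, and Vdr, of the vitamin D receptor, held 6 sites. Of 19 genes of receptor tyrosine kinases and their adaptors, 11 held a site (57.9%). Their densities were 34.3 per Mb in first and 42.6 in later introns. Egfr, of the EGF receptor, held 5 (tallest 7.96 and 7.63), the adaptor gene Gab1 held 9 (7.28 and 5.36), and Erbb3, of another receptor of that family, held 1 (5.06 and 3.76).

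Genes of other organs were a weak check of the tissue label. Hepatocyte and male germ cell genes had 0.0269 and 0.0229 Mb of first intron, in which all genes' density of 30.9 sites per Mb would give less than 1 site, and the kidney list of thick ascending limb had no site either. First-intron sites were found in 0 of 9 hepatocyte genes, 0 of 8 male germ cell genes, 1 of 14 striated muscle genes (Actn2, 1.53 and 0.560) and 2 of 14 neuronal genes (Rbfox3, 1.48 and 0.947, and Dscam, 0.909 and 0.479). The muscle and neuronal shares were 7.14% and 14.3%, against 20.7% of all genes, and their first introns held 4.1 and 10.8 sites per Mb. Of 11 immune cell genes 4 held a site (36.4%), at 63.4 per Mb in 0.0789 Mb of first intron and 24 per Mb in later introns. The tallest was in Csf1r, of the macrophage growth factor receptor (2.71 and 3.02), then Bcl11b (1.84 and 1.03) and Cd74 (1.46 and 0.835). What part immune cells have in the sites of other genes was not tested. All lists are small, from 8 to 29 genes, and introns differ in length between them, so the counts describe these genes alone.

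**Figure D4:**
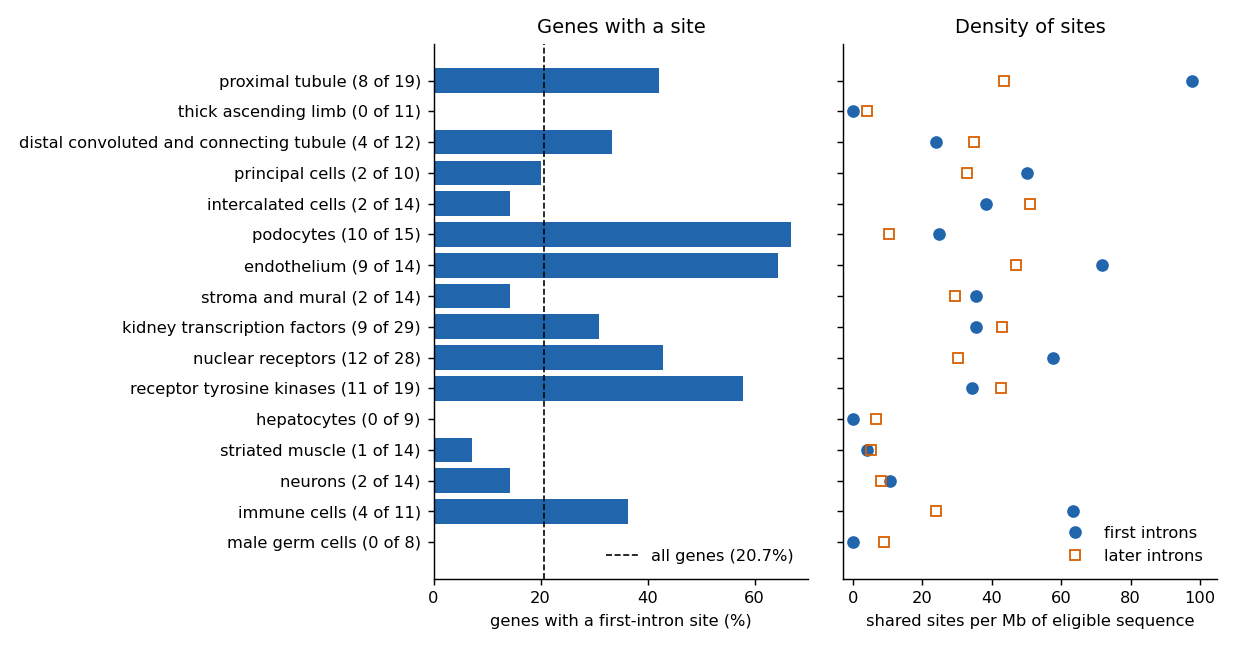
Left, bars give the percent of each list's genes with eligible sequence that held a first-intron site, with counts beside the names and 20.7% of all genes as the dashed line. Right, points give sites per Mb of eligible sequence in first and later introns of those genes; proximal tubule genes stand at 97.6 and 43.5, and thick ascending limb, hepatocyte and male germ cell genes at 0 in first introns.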

How the data were processed

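The 2 libraries were DNase-seq of kidney tissue on mm10, per the labels. Which aligner, peak caller and footprint caller were run is not given in the sources used here. Depth is unknown, since no read totals came with the files. Each deposited peak has a signal value, its height, scaled by the authors separately in each library, and of the 2 peak sets of each library the smaller was used. The deposited FDR files hold a p-value type measure, the false discovery rate, whose best value at any first-intron site was at most 0.000908 in replicate 1 and 0.000979 in replicate 2. The deposited footprint files carry the p-value 0.01 in every row, taken as their threshold, so footprints have no score of their own.

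Introns came from GENCODE M21, with the longest protein-coding transcript by summed exon length. Starts were those of every transcript of protein-coding genes. Eligible sequence was intron sequence outside all exons and over 1000 bp from those starts, and where genes overlap, first took precedence over later; 111 first-intron sites also lay in a later intron of another gene. The height of a site in replicate 2 was that of its tallest overlapping peak, and a footprint was counted where its middle lay in the replicate 1 peak. Motifs, 23 in all, were searched on both strands. Windows were CpG-rich by GC content and observed over expected CpG. Promoter sequence and RefSeq starts were read from the mm10 annotation.

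The members, the 16 lists (317 symbols) and the motifs were chosen with earlier results of these data known. Named genes were the 10 with most sites, the 10 tallest sites by mean rank, and the 3 members of each list with the tallest site; other genes named were chosen after their values were seen. Some results that the rule takes are not reported here. Capitals in sequences mark footprinted bases, also a choice made after the files were read. Python 3.11.15, numpy 2.4.6, pandas 2.3.3 and bedtools 2.31.1 were used, and the steps were tested on simulated data. Intervals are 95% Wilson intervals and cover counting error only. Alternatives changed the peak set, the overlap, the height, the distance from starts, the choice of starts and of transcript, and left out each library.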

Additional observations from a re-analysis of the deposited data

How the results depend on the processing

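First introns stayed denser than later introns under every alternative run. The number of first-intron sites was 10435 with the wider peak set, 3066 with the stronger 50% of peaks, 4037 at over 5000 bp from starts, and 6660 or 13378 with 1 library alone. The density ratio was 1.83 with the stronger 50%, 1.44 and 1.40 at over 2500 and 5000 bp, 1.62 with only the 5′ ends of genes as starts, 1.46 with the longest transcript by genomic span, and 1.45 to 1.52 with 1 library alone. The distance-weighted ratio was 1.40 with the wider set, 1.59 with the stronger 50%, 1.32 and 1.29 at over 2500 and 5000 bp, 1.31 with 5′ ends only, 1.32 by span, and 1.33 to 1.37 with 1 library alone.

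The share with a footprint in both libraries was 74.6% with the wider set and 97.2% with the stronger 50%. Its difference from later introns turned to -0.636 points with the stronger 50% and -0.372 with 5′ ends only, and was 0.466 by span. With 1 library alone, only footprints of that library were counted. The share was then 88.6 to 90.2% and the difference 0.572 to 0.883 points. The cause of these changes was not tested. The share of genes with a site was 11.5% with the stronger 50% and 20.9 to 33.3% with 1 library alone. The GC difference was 1 point with the wider set, at over 2500 bp, with 5′ ends only and with 1 library alone. The height ratio in replicates 1 and 2 was 1.10 and 1.11 with the wider set, 1.04 and 1.05 with the stronger 50%, and 1.17 and 1.15 with 1 library alone.

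Leaving out read-through transcripts, added after seeing the data, gave 6204 sites and a ratio of 1.5. No paired analysis was possible because there is 1 group. Depth is unknown, so absent peaks may be peaks not detected.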
